A study of Mus musculus with 30 samples.

Results

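The C/EBP transcription factors (CCAAT/enhancer-binding proteins) Cebpa, Cebpb and Cebpd were followed in mouse olfactory epithelium over 48 h after bilateral bulbectomy, an operation that takes away both olfactory bulbs and so cuts the axons of the sensory neurons from their target. The members were all probe sets annotated to exactly 1 gene with 1 of these 3 symbols, which gave 3 of 12422 non-control probe sets and 3 of the 8251 genes on the array: 98447_at for Cebpa, 92925_at for Cebpb and 160894_at for Cebpd. Each gene thus had a single probe set, and all 3 passed the filter on low signals. The 10 groups were arrays labelled SR-A mutant at 0, 2, 8, 16 and 48 h and arrays labelled wild type at the same times, with 3 arrays each and 30 in all, from 6-week-old mice. SR-A is a scavenger receptor of macrophages and the product of Msr1. The labels give no strain and no allele and do not say whether 0 h mice were operated on. The series' design text names 3 mice of each kind, and no label ties an array to a mouse or says that each array had a mouse of its own, so any p-value measures the spread between these arrays.

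C/EBP proteins bind DNA as dimers through a basic leucine zipper and share a recognition sequence built from opposed TTGC half-sites. Cebpa is best known for holding cells in a differentiated, non-dividing state in fat, liver and granulocytes. Cebpb and Cebpd are induced by interleukin 6, interleukin 1 and glucocorticoids in many tissues and drive acute phase and cytokine genes, and their activity depends on phosphorylation and isoform as well as on transcript level. Values below are MAS5 signals, linear intensity units on which every array had been scaled to the same trimmed mean. The transcript level alone was measured here, and levels of different probe sets are not compared. In whole tissue, a change in the number of expressing cells and a change in RNA per cell cannot be told apart.

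Promoter windows of 2 of the 3 members, Cebpa and Cebpb, were found in RefSeq's GRCm38.p6 table, while Cebpd had no entry. They are shown because the response of Cebpb to cAMP and cytokine signals is classically read from its proximal promoter. Each line is the 250 bases before the annotated gene start, on the plus strand, with matches to the searched motifs in capitals. The first window is chr7:35119043-35119292 and the second chr2:167688665-167688914.
Cebpa: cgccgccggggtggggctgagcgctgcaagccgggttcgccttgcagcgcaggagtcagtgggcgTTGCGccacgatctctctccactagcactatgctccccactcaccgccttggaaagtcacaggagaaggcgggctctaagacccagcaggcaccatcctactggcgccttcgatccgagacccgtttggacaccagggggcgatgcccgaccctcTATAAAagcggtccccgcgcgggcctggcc
Cebpb: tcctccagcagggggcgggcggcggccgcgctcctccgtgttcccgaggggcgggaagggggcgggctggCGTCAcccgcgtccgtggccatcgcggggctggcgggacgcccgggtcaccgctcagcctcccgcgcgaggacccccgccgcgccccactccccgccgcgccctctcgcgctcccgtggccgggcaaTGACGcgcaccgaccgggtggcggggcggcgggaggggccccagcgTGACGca
Of the motifs searched on both strands, Cebpa held a C/EBP half-site, TTGCG, from base 185 to base 181 before the start and a TATA box, TATAAA, from base 30 to base 25. Cebpb held 3 cAMP response element half-sites, TGACG, starting 180, 53 and 7 bases before the start, the first of them on the minus strand. TTGCG was held by 14.5%, TATAAA by 12.4% and TGACG by 17.8% of all 32851 windows of that length. Neither window held TTGCNNAA with both C/EBP half-sites, the STAT element TTCNNNGAA or the CCAAT box CCAAT, which were present in 9.56%, 7.02% and 33.9% of windows. TTGCG and TTGCNNAA overlap where both match. The windows were GC-rich, at 66.4% for Cebpa and 81.6% for Cebpb, against a median of 52.4% for all windows. A match describes letters, not a bound site.

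The labels and RNA quality limit what follows. Msr1 was dim, and its brighter probe set was higher in mutant-labelled arrays, between 297.5 and 587.4, than in wild-type-labelled arrays, between 32.6 and 295.1. The labels do not place the mutation, so Msr1 is no check of them, and groups are called by their label throughout. In the mutant-labelled 2 h arrays the 3' minus 5' log2 difference of the Gapdh control probe sets was 5.59, 0.15 and 1.27 in replicates 1, 2 and 3, whereas the other 27 arrays lay between -0.31 and -0.13. Omp, the marker of mature sensory neurons, lay between 128.5 and 16964 in the mutant-labelled 2 h arrays and between 16299.5 and 40155 in those 27 arrays. Values that use that group are printed with this limit.

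The members were chosen by their measured signals over these same 10 groups, so their values and differences are a description and carry no p-value. Differences are differences between groups in mean log2 signal, which need not equal the log2 ratio of the printed mean signals, with the moderated standard error of a limma fit to all 30 arrays, the later time or the mutant label first.

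Cebpa was higher at 8, 16 and 48 h than at 0 h in mutant-labelled arrays, and at 16 and 48 h in wild-type-labelled arrays. In mutant-labelled arrays its signal was 2896, 2928 and 2531 at 0 h, 750.2, 2898 and 1728 at 2 h, and 4322, 4440.5 and 4397 at 8 h. It was 3893, 3917 and 3447 at 16 h and 3328, 3530.4 and 4622 at 48 h. All 9 mutant-labelled arrays from 8 h on thus lay above the 3 at 0 h, while the 2 h values spread widely, and the lowest, in replicate 1, was on the array with the highest Gapdh difference. In wild-type-labelled arrays the signal was 2935, 2945 and 2783.5 at 0 h, 2601, 3027 and 2920 at 2 h, and 4171.5, 3764 and 2285 at 8 h. It was 4091, 3921 and 5643 at 16 h and 3672, 3928 and 4433 at 48 h. The wild-type-labelled 8 h arrays straddled the 0 h range because replicate 3 lay below it, and those at 16 and 48 h lay wholly above it.

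The log2 difference of Cebpa from 0 h was 0.66 ± 0.29 at 8 h, 0.43 ± 0.29 at 16 h and 0.45 ± 0.29 at 48 h in mutant-labelled arrays. In wild-type-labelled arrays it was 0.19 ± 0.29 at 8 h, 0.64 ± 0.29 at 16 h and 0.47 ± 0.29 at 48 h. The wild-type-labelled 8 h value was 0.02 without 8 h replicate 1, 0.10 without replicate 2 and 0.46 without replicate 3. The 2 h mutant-labelled arrays widened this error, which was 0.17 in a fit without them. Between labels the 0 h arrays differed by -0.06 ± 0.29 and the 48 h arrays by -0.08 ± 0.29, both well within their error and of either sign when single arrays were left out. Ordered by mean signal, wild-type-labelled 16 h came first at 4552 ± 949 (SD) and mutant-labelled 2 h last at 1792 ± 1076. None of the 9 steps between neighbouring groups in that order exceeded the larger SD of the pair, although the 0 h groups lay at ranks 7 and 9.

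Cebpb showed opposite courses under the 2 labels. It was high at 0 and 8 h and low at 16 and 48 h in mutant-labelled arrays, whereas in wild-type-labelled arrays it was lowest at 0 h and highest at 48 h. In mutant-labelled arrays its signal was 8101, 6899 and 7300 at 0 h, 4356, 5835 and 4584 at 2 h, and 7314, 8474 and 8228 at 8 h. It was 5422, 4518 and 5030 at 16 h and 4448, 4576 and 4758 at 48 h. The 16 h and 48 h arrays lay wholly below those at 0 h, while the 8 h arrays overlapped them. In wild-type-labelled arrays the signal was 4290, 3980 and 5153 at 0 h, 5178, 6510.5 and 5910 at 2 h, and 5100, 5013 and 5296 at 8 h. It was 5737, 5571 and 5994 at 16 h and 6490, 6766.5 and 6148 at 48 h. Here the 2, 16 and 48 h arrays lay wholly above those at 0 h, by little in the case of 2 h, and the 8 h arrays overlapped them.

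The log2 difference of Cebpb from 0 h was 0.11 ± 0.11 at 8 h, -0.58 ± 0.11 at 16 h and -0.69 ± 0.11 at 48 h in mutant-labelled arrays. It was 0.39 ± 0.11 at 2 h, 0.21 ± 0.11 at 8 h, 0.37 ± 0.11 at 16 h and 0.54 ± 0.11 at 48 h in wild-type-labelled arrays. With single arrays left out the 8 h values lay between 0.06 and 0.17 in mutant-labelled and between 0.13 and 0.31 in wild-type-labelled arrays. The groups already differed at the start, with 7433 ± 612 in mutant-labelled and 4474 ± 608 (SD, n = 3 each) in wild-type-labelled 0 h arrays, a log2 difference of 0.74 ± 0.11. At 8 h the difference between labels was 0.64 ± 0.11, at 16 h -0.21 ± 0.11 and at 48 h -0.49 ± 0.11. Arrays of the 2 labels did not overlap at any of these 4 times. In the order of means, mutant-labelled 8 h (8005 ± 611) and 0 h stood first and did not differ beyond their spread, and mutant-labelled 0 h lay above wild-type-labelled 48 h (6468 ± 310) without overlap. Of the 9 steps between neighbours, that one and the step between wild-type-labelled 16 h and 8 h exceeded the larger SD, and the lowest 4 groups, from mutant-labelled 16 h to wild-type-labelled 0 h, could not be separated step by step.

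Cebpd was lowest at 48 h in mutant-labelled arrays and at 16 h in wild-type-labelled arrays. In mutant-labelled arrays its signal was 9943, 7298 and 8593 at 0 h, 8421.5, 8651 and 8570.2 at 2 h, and 7487, 7464 and 7040.5 at 8 h. It was 7500 in replicate 1, 4496 in replicate 2 and 2801 in replicate 3 at 16 h, and 3696, 3504 and 4309 at 48 h. The 48 h arrays lay wholly below those at 0 h, and at 16 h a single array, replicate 1, was inside the 0 h range. In wild-type-labelled arrays the signal was 7928, 4311.5 and 7032 at 0 h, 7949, 6728 and 8110 at 2 h, and 6110, 5733 and 8821 at 8 h. It was 4451, 4190.3 and 3179 at 16 h and 11551, 6418 and 7066 at 48 h. Replicate 2 at 0 h was low and overlapped the 16 h arrays, and replicate 1 at 48 h was the highest Cebpd value of the series.

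The log2 difference of Cebpd from 0 h was -0.22 ± 0.27 at 8 h, -0.91 ± 0.27 at 16 h and -1.16 ± 0.27 at 48 h in mutant-labelled arrays. It was 0.28 ± 0.27 at 2 h, 0.12 ± 0.27 at 8 h, -0.67 ± 0.27 at 16 h and 0.37 ± 0.27 at 48 h in wild-type-labelled arrays. Single arrays weighed on several of these. The mutant-labelled 8 h value was -0.11 without 0 h replicate 1 and -0.34 without 0 h replicate 2, and the 16 h value was -0.56 without 16 h replicate 3. Without wild-type-labelled 0 h replicate 2 the values were 0.02 at 2 h, -0.14 at 8 h and 0.11 at 48 h, and without its 48 h replicate 1 the 48 h value was 0.12. At 48 h the mean was 3837 ± 420.3 in mutant-labelled and 8345 ± 2795 (SD, n = 3 each) in wild-type-labelled arrays, a log2 difference of -1.08 ± 0.27, with no overlap. At 0 h it was 8612 ± 1323 in mutant-labelled and 6424 ± 1883 in wild-type-labelled arrays, and these overlapped. None of the 9 steps between neighbouring groups in the order of means exceeded the larger SD. The upper 7 groups ran from mutant-labelled 0 h to wild-type-labelled 0 h, and mutant-labelled 16 h, wild-type-labelled 16 h and mutant-labelled 48 h made up the low end.

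**Figure D1:**
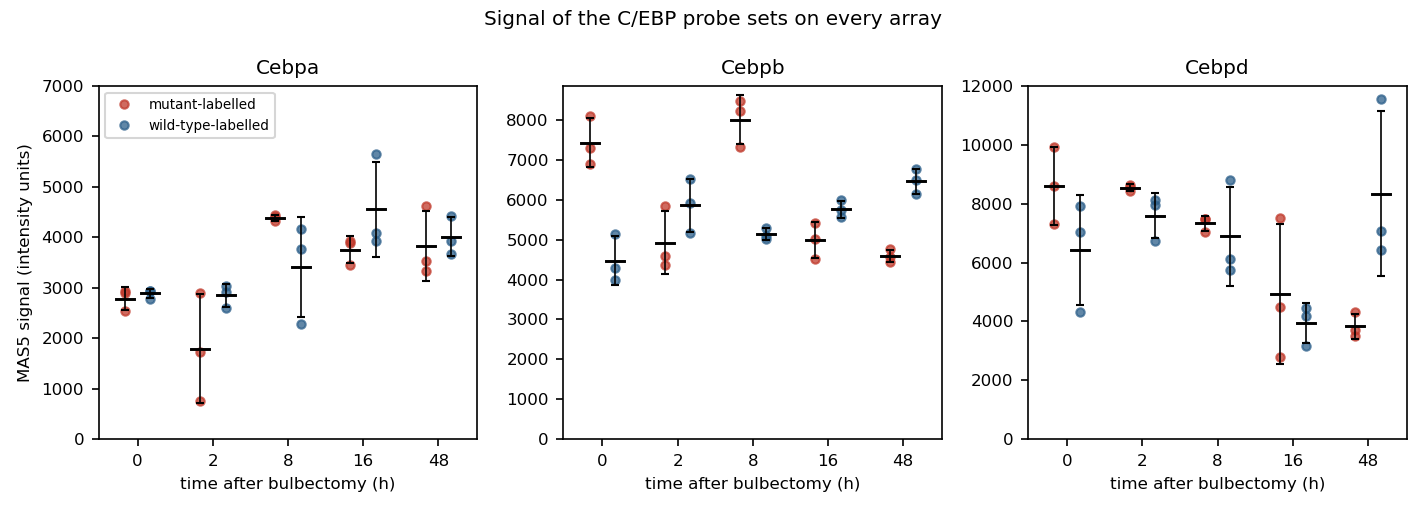
Signal of each C/EBP probe set (MAS5 intensity units, linear axis from 0) against time after bulbectomy (h), with 1 point per array, bars for the group mean and whiskers for the SD of 3 arrays, mutant-labelled in red and wild-type-labelled in blue. Cebpa is higher at 16 and 48 h than at 0 h under both labels, Cebpb is lower at 48 h than at 0 h under the mutant label and higher under the wild-type label, and Cebpd at 48 h averages 3837 in mutant-labelled and 8345 in wild-type-labelled arrays.

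Seen over the comparisons, all 3 members had arrays that did not overlap between 48 h and 0 h under the mutant label, Cebpa above and Cebpb and Cebpd below, where 27.7% of the 5396 genes tested did not overlap. Under the wild-type label Cebpa and Cebpb did so at 48 h, both above, where 37.9% of genes did not overlap. At 16 h Cebpa (above) and Cebpb (below) did so under the mutant label, with 26.9% of genes, and the same pair, both above, under the wild-type label, with 36.7% of genes. Between labels at 48 h Cebpb and Cebpd were lower in mutant-labelled arrays without overlap, where 30.7% of genes did not overlap. At 8 h Cebpa lay wholly above 0 h under the mutant label, where 25.7% of genes did not overlap, and at 2 h Cebpb did under the wild-type label, where 33.1% did not. Between labels Cebpb did not overlap at 0, 8 or 16 h either, nor did Cebpa at 8 and 16 h, and 42.9%, 26.2% and 34.2% of genes did not overlap at 0, 8 and 16 h. These contrasts were among those that chose the members, and nothing is read from the counts.

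**Figure D2:**
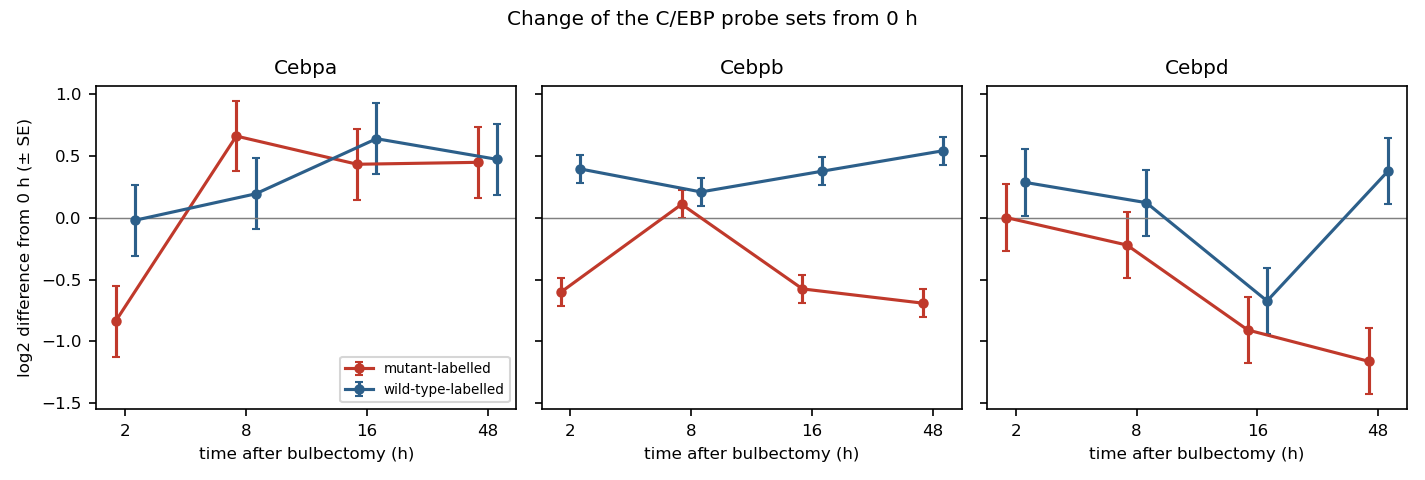
Log2 difference of each C/EBP probe set from 0 h of the same label (y axis, ± SE from the fit of all 30 arrays) against time (h), mutant-labelled in red and wild-type-labelled in blue. At 48 h the 2 labels lie close for Cebpa (0.45 and 0.47) and apart for Cebpb (-0.69 and 0.54) and Cebpd (-1.16 and 0.37).

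Across the 9 groups other than mutant-labelled 2 h, the log2 means of Cebpb and Cebpd had a Pearson correlation of 0.61, those of Cebpa and Cebpd -0.47 and those of Cebpa and Cebpb 0.19. The points share arrays and scaling, and with all 10 groups the 3 values were 0.46, -0.54 and 0.31. The span between the highest and lowest of the 9 log2 group means was 0.69 for Cebpa, 0.85 for Cebpb and 1.16 for Cebpd, and 67.8%, 80.3% and 92.3% of tested genes had a smaller one.

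The genes most like each member over these 9 group means were taken from 624 genes whose means spanned at least 1 log2 unit. For Cebpa they were Luc7l3, a splicing factor (r = 0.91), Ccr2, the receptor for the monocyte chemokine Ccl2 (r = 0.91), and the aldo-keto reductase Akr1b8 (r = 0.87). Ccr2 averaged 336 ± 97.8 at 48 h and 295 ± 67.0 at 0 h in mutant-labelled arrays, and 621 ± 95.7 at 48 h and 295 ± 49.0 at 0 h in wild-type-labelled arrays (SD, n = 3 each). For Cebpb they were Dio2, which activates thyroid hormone (r = 0.81), Sfn, the epithelial 14-3-3 protein stratifin (r = 0.81), and Map7d1, a microtubule-associated protein (r = 0.79). For Cebpd all 3 were genes of the immediate early kind, which respond within minutes to growth factors and stress: the matricellular Ccn2 (r = 0.85), the zinc finger factor Egr1 (r = 0.85) and Ier2 (r = 0.84). Egr1 averaged 521 ± 95.2 at 48 h and 2285 ± 389 at 0 h in mutant-labelled arrays, and 1230.1 ± 545 at 48 h and 1339 ± 58.2 at 0 h in wild-type-labelled arrays. Over the 27 single arrays of these groups Ccn2, Egr1 and Ier2 ranked 20, 15 and 6 among the 624 genes for Cebpd (r = 0.59, 0.61 and 0.66). By Spearman correlation of the 9 means they ranked 18, 7 and 3. These correlations describe 9 points and carry no test.

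**Figure D3:**
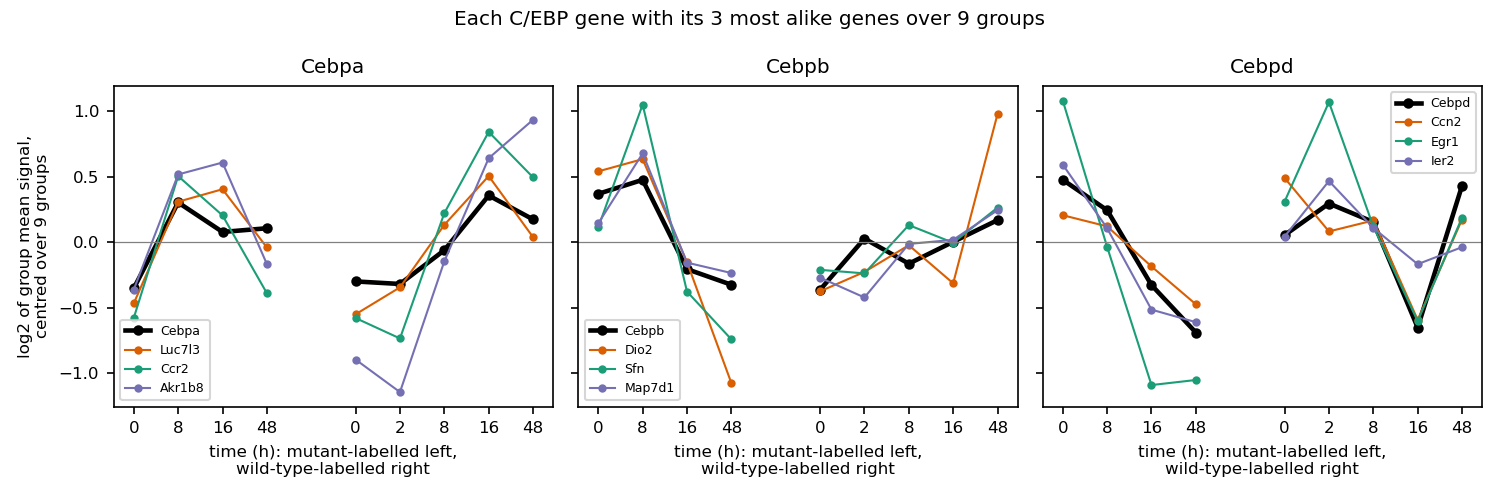
Log2 of the group mean signal, centred over 9 groups (y axis), for each C/EBP gene in black and its 3 most alike genes in colour, against time (h), with mutant-labelled groups on the left and wild-type-labelled groups on the right of each panel. Cebpd is lowest at 48 h under the mutant label and at 16 h under the wild-type label, and Ccn2 and Egr1 have low points at 16 h under the wild-type label too.

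The other C/EBP proteins and their partners came next. Cebpg, a family member without a strong activation domain that pairs with the others, had a mean signal of 1422 ± 102 at 48 h and 1472 ± 86.9 at 0 h in mutant-labelled arrays. It had 1497 ± 71.4 at 48 h and 1302 ± 47.4 (SD, n = 3 each) at 0 h in wild-type-labelled arrays, and did not pass the test at 8, 16 or 48 h under either label. At 8 h 1.98% of all genes tested passed under the mutant label and 0.185% under the wild-type label. Of 16 listed genes 10 were tested. P-values here and below are two-sided limma values, Benjamini-Hochberg adjusted over the 6968 probe sets tested in a comparison, with a threshold of 0.05, and counts use 1 probe set per gene. At 48 h 3 of the 10 fell and 0 rose in mutant-labelled arrays (8 of the 10 had an unadjusted p under 0.05), where 10.2% of all genes tested passed. The stress-induced Atf3 fell by 1.72 ± 0.29 (adjusted p = 0.000534), Ddit3, which as CHOP blocks C/EBP binding, fell by 0.86 ± 0.27 (adjusted p = 0.043), and Atf4, the activator of both, fell by 0.53 ± 0.10 (adjusted p = 0.00206). The Ddit3 call was lost when any of 5 single arrays was left out, with no low-signal filter, and with the replicate number as a block.

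In wild-type-labelled arrays at 48 h 2 of the 10 partner genes fell, Atf3 by 1.20 ± 0.29 (adjusted p = 0.00609) and Trib3, a pseudokinase induced by Atf4 and Ddit3, by 0.50 ± 0.16 (adjusted p = 0.0426), where 15.4% of all genes passed. That count was 1, or 0 without 0 h replicate 3, when any single array of the 2 groups was left out, and 1 with the replicate number as a block or with no low-signal filter. The list's median change was -0.49 in mutant-labelled and -0.12 in wild-type-labelled arrays, beside 0.02 and -0.02 over all genes tested. At 16 h Atf3 changed by -1.87 ± 0.29 (adjusted p = 0.000534) in mutant-labelled arrays, where 4.02% of all genes passed. In wild-type-labelled arrays, where 6.41% passed, Atf3 changed by -1.75 ± 0.29 (adjusted p = 0.00185) and Trib3 by -0.82 ± 0.16 (adjusted p = 0.00537). For none of the 10 did the change differ between labels past the threshold at 48 h, with 3 at an unadjusted p under 0.05 in limma.

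Among the upstream signals of Cebpb and Cebpd, 1 of 16 tested genes rose and 0 fell at 48 h in mutant-labelled arrays (list median -0.09), where 10.2% of all genes passed. In wild-type-labelled arrays 5 of 16 rose and 0 fell (list median 0.33), where 15.4% of all genes passed. The 5 were Il1b, Il1r2, Il6, Osmr and Socs3. Il1b, the cytokine interleukin 1 beta, had signals of 56.1, 318.9 and 128.9 at 48 h and 379.7, 285.9 and 219.7 at 0 h in mutant-labelled arrays and did not pass (-0.78 ± 0.40, adjusted p = 0.231). In wild-type-labelled arrays Il1b had 1281, 1028 and 1970.0 at 48 h and 204.0, 285.9 and 239.5 at 0 h, a rise of 2.51 ± 0.40 (adjusted p = 0.000143). Il6 had signals of 7.2, 8.7 and 136.7 at 48 h and 291.5, 155.3 and 189.5 at 0 h in mutant-labelled arrays (adjusted p = 0.331). It had 788.4, 1525.5 and 1754 at 48 h and 576.8, 334.1 and 441.5 at 0 h in wild-type-labelled arrays (1.54 ± 0.47, adjusted p = 0.0271). All wild-type-labelled 48 h arrays lay above their 0 h arrays for both cytokines.

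Osmr, the oncostatin M receptor chain that signals with gp130, was the only gene of this list that rose in mutant-labelled arrays at 48 h, by 1.13 ± 0.30 (adjusted p = 0.0179), and it rose by 1.94 ± 0.30 (adjusted p = 8.67e-05) in wild-type-labelled arrays. Il1r2, the decoy receptor for interleukin 1, and Socs3, the feedback inhibitor of gp130 signalling, rose by 1.84 ± 0.43 and 1.02 ± 0.23 in wild-type-labelled arrays. The Osmr call in mutant-labelled arrays was lost without 0 h replicate 2 or 48 h replicate 2 or 3, and quantile normalization brought the wild-type-labelled count of 5 to 8. Stat3, the factor that carries interleukin 6 signals to Cebpb and Cebpd, was at 4802 ± 655 at 48 h and 3822 ± 371 at 0 h in mutant-labelled arrays, and 5060 ± 501.5 and 4405 ± 403 in wild-type-labelled arrays. It did not pass under the mutant label (0.32 ± 0.19, adjusted p = 0.29) or the wild-type label (0.20 ± 0.19, adjusted p = 0.525). Earlier, Il6 was at the floor of 113.7 in all 3 wild-type-labelled 16 h arrays, at least 3.87-fold lower than at 0 h (adjusted p = 0.0144), and Csf3, the granulocyte growth factor, rose by 1.62 ± 0.35 (adjusted p = 0.0121) at 8 h in mutant-labelled arrays. The Il6 call at 16 h was lost without 0 h replicate 1 or 16 h replicate 1, and that of Csf3 without 0 h replicate 2 or 3 or 8 h replicate 1.

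Acute phase and defence genes, many of them textbook C/EBP targets, rose at 48 h in 4 of 18 tested cases in mutant-labelled arrays and in 13 of 18 in wild-type-labelled arrays, with 0 lower in either, where 10.2% and 15.4% of all genes passed. The list's median change was 0.20 in mutant-labelled and 1.98 in wild-type-labelled arrays. At 8 h 6 of 18 rose in mutant-labelled arrays (median 0.64, all genes 1.98%) and 3 of 18 in wild-type-labelled arrays (median 0.08, all genes 0.185%). The 6 were Ccl2, Il1rn, Lcn2, Saa3, Serpina3n and Slpi, and the 3 were Ccl2, Lcn2 and Serpina3n. At 16 h 3 of 18 rose in mutant-labelled arrays (median 0.21, all genes 4.02%) and 6 of 18 in wild-type-labelled arrays (median 0.49, all genes 6.41%). The mutant-labelled 8 h count of 6 fell to between 2 and 4 whichever single array of the 2 groups was left out. It was 3 without 0 h replicate 2 or 3 and 2 without 8 h replicate 1. The wild-type-labelled 8 h count was 0 without replicate 1 or 2 at 0 h or replicate 2 at 8 h, and 1 without 8 h replicate 1. The wild-type-labelled 16 h count was 3 without 0 h replicate 2 and 2 without 16 h replicate 1. Lcn2, the siderophore-binding lipocalin 2, Slpi, a secreted protease inhibitor, and Serpina3n, an acute phase serpin, rose under both labels. Slpi changed by 1.24 ± 0.18 in mutant-labelled and 1.49 ± 0.18 in wild-type-labelled arrays, and Serpina3n by 2.08 ± 0.25 and 1.95 ± 0.25. The other probe set of Slpi changed by 3.49 in mutant-labelled and 3.4 in wild-type-labelled arrays. Lcn2 had signals of 27508, 24154.5 and 26081 at 48 h and 1763, 1784 and 1464 at 0 h in mutant-labelled arrays, and 44402, 34958 and 38509 at 48 h and 5422, 3686 and 5459 at 0 h in wild-type-labelled arrays. Its change was 3.96 ± 0.28 (adjusted p = 8.49e-10) and 3.03 ± 0.28 (adjusted p = 7.84e-08), but 0.50 and 0.43 on its other probe set. Mt1, a metallothionein, made up the 4 in mutant-labelled arrays at 0.42 ± 0.12 (adjusted p = 0.024).

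Other genes of that list were high in wild-type-labelled 48 h arrays and at or near the floor in mutant-labelled ones. Saa3, a serum amyloid A protein, had signals of 85.4, 131.3 and 223.8 in mutant-labelled 48 h arrays and 5396, 5732 and 3575 in wild-type-labelled 48 h arrays. The 0 h signals were at or below 113.7 in all 3 mutant-labelled arrays and 196.4, 138.9 and 178.1 in wild-type-labelled arrays. Orm1, an acute phase carrier protein, had 88.6, 190.8 and 367.9 in mutant-labelled and 3025, 3043 and 2481.5 in wild-type-labelled 48 h arrays, and Cxcl2, the neutrophil chemokine, had 74.9, 108.9 and 204.4 in mutant-labelled and 5200.0, 3463 and 7909 in wild-type-labelled 48 h arrays. Ccl2, the monocyte chemokine, had 118.6, 179.9 and 155.2 in mutant-labelled and 991.6, 853.7 and 926.3 in wild-type-labelled 48 h arrays. For these 4 genes no 48 h array of one label reached the range of the other. Against 0 h of the wild-type label Saa3 rose by 4.82 ± 0.35 (adjusted p = 3.51e-09), and Cxcl2, Orm1 and Ccl2, which were at the floor at 0 h in some or all arrays, rose at least 42.4-fold, 19.1-fold and 8.11-fold.

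**Figure D4:**
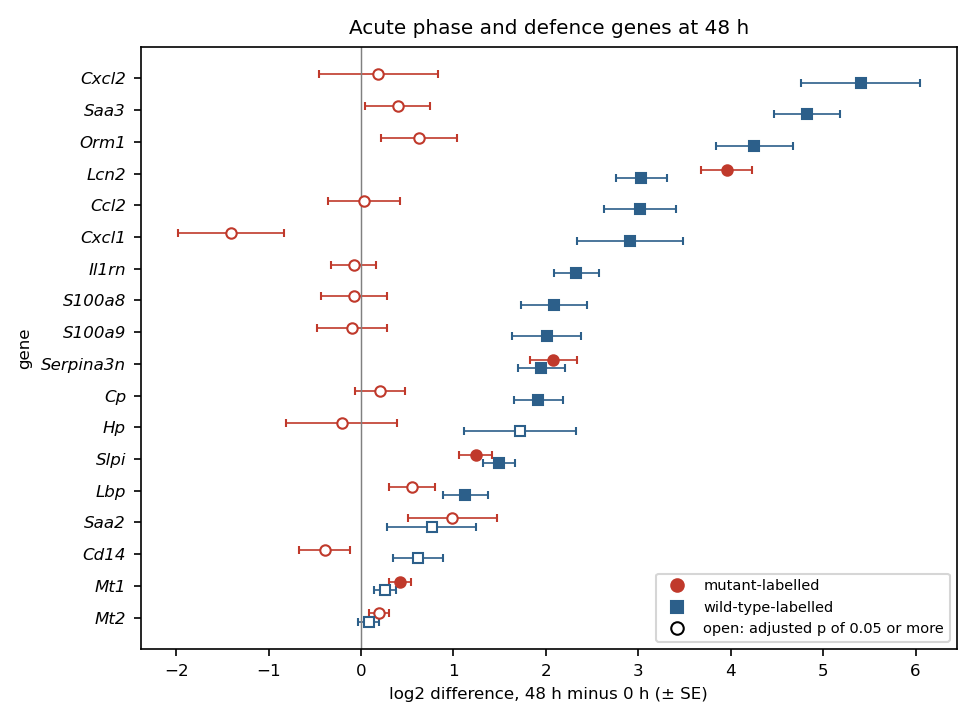
Log2 difference between 48 h and 0 h (x axis, ± SE, n = 3 arrays per group) for the 18 tested acute phase and defence genes (y axis, ordered by the wild-type-labelled change), mutant-labelled as red circles and wild-type-labelled as blue squares, filled where the adjusted p was under 0.05. Lcn2, Serpina3n and Slpi are filled under both labels, and Cxcl2, Saa3 and Orm1 are filled under the wild-type label with differences above 4.

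The difference of the 2 changes was tested for the listed genes. At 48 h the change was lower in mutant-labelled than in wild-type-labelled arrays for 12 of 71 listed genes and higher for 0, where 3.06% of all genes tested passed. The 12 were 9 acute phase and defence genes, Saa3 (-4.43 ± 0.50, adjusted p = 1.25e-05), Cxcl2 (-5.22 ± 0.91), Cxcl1 (-4.32 ± 0.81), Orm1 (-3.63 ± 0.59), Ccl2 (-2.99 ± 0.56), Il1rn (-2.41 ± 0.34), S100a8 (-2.17 ± 0.51), S100a9 (-2.10 ± 0.53) and Cp (-1.71 ± 0.38), and 3 upstream genes, Il1b (-3.30 ± 0.57), Il1r2 (-2.28 ± 0.61) and Socs3 (-1.48 ± 0.33). Their adjusted p-values lay between 1.25e-05 and 0.0427 in limma. Cxcl1, Il1rn, S100a8, S100a9, Cp and Socs3, and above Slpi, Serpina3n and Mt1, were named after their values were seen. Of these 12, between 9 and 12 were called under each alternative. Saa3, Cxcl2, Cxcl1, Orm1, Ccl2, Il1rn and Il1b lay at the floor in some arrays, so that their differences are on the floored scale. At 8 and 16 h 0 of the 71 passed in limma, with 8 and 15 at an unadjusted p under 0.05, where 0.0% and 0.13% of all genes passed. At 16 h the count ran up to 4, with only the groups compared in the fit.

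Beside these values, summed neutrophil markers (11 genes) lay between 38202 and 63684 in mutant-labelled 48 h arrays and between 55120 and 77800 in wild-type-labelled 48 h arrays, against 42023 to 45217 and 42264 to 49669 at 0 h. The sum adds signals of different probe sets and is mostly Ltf, and it holds S100a8 and S100a9, which are among the 12 genes above. Without those 2 it lay between 34343 and 56537 in mutant-labelled and between 39176 and 49693 in wild-type-labelled 48 h arrays, so that the labels overlapped, against 36013 to 37557 and 35286 to 43800 at 0 h. Without Ltf as well it lay between 5955 and 8581 in mutant-labelled and between 4247 and 9659 in wild-type-labelled 48 h arrays, against 7686.5 to 12624 and 6514 to 12884 at 0 h. These partial sums were chosen after the data were seen. Cxcr2, a defining neutrophil receptor, was at or below the floor in 28 of 30 arrays and Mmp8 in 26. Summed macrophage markers (11 of 12 genes measured) lay between 21924 and 28954 in mutant-labelled and between 26112 and 30719 in wild-type-labelled 48 h arrays, against 17507 to 24943 and 15472 to 19046 at 0 h, with Itgam at or below the floor in 21 arrays. The macrophage sum is not independent of the gene lists. Its markers with the highest median signals, Lyz2 and Cd14, are both among the myeloid genes below. Cd14 is also among the acute phase and defence genes. In wild-type-labelled arrays Lyz2 averaged 9799 at 48 h and 3710 at 0 h, and Cd14 7598 and 4934. In mutant-labelled arrays Lyz2 averaged 8139 at 48 h and 6896 at 0 h, and Cd14 4119 and 5254. Summed signals for some resident cells differed from 0 h too. Summed markers of mature sensory neurons (3 of 9 genes measured) lay between 26837 and 36944 in mutant-labelled and between 24327 and 29691 in wild-type-labelled 48 h arrays, against 46710.1 to 52438 and 44208 to 52587 at 0 h. Summed markers of sustentacular cells, the supporting cells of the epithelium (4 of 8 genes measured), lay between 55581 and 57397 in mutant-labelled and between 39712 and 52425 in wild-type-labelled 48 h arrays, against 40709 to 43726 and 34053 to 37161.5 at 0 h. Summed nasal gland markers (3 of 7 genes measured) overlapped their 0 h range at 48 h under both labels. Those of basal cells (5 of 6) did so under the mutant label. Under the wild-type label they lay between 1668 and 1792, against 983.3 to 1192 at 0 h. Krt14 and Krt15 were at or below the floor in all 30 arrays and Krt5 in 28, so the basal cell sum is mostly Trp63 and Icam1. Summed markers of adipocytes (5 of 7) overlapped under the wild-type label. Under the mutant label they lay between 1674 and 1863.5, against 1423 to 1449 at 0 h. The adipocyte sum is mostly Lep, which is also among the adipocyte and lipid genes below. Retn was at or below the floor in all 30 arrays and Fabp4 in 15. Lep already differed between labels at 0 h, by -1.26 ± 0.24 (adjusted p = 0.00167 in limma). The part of any of these cells in the C/EBP values was not tested.

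Sequences at C/EBP sites were looked up for the tested acute phase and defence genes. Of the 18 tested acute phase and defence genes 13 had a promoter window, and 7 of these genes held TTGCNNAA in the 250 bases before a start, on either strand, as did 10.8% of all 27025 genes in the table. The list was built around known C/EBP targets, and the median GC content of its windows, 51.4%, was close to that of all windows. The sites of the 5 genes that rose at 48 h under the wild-type label are shown with 8 bases on each side, on the strand of the gene and with the site in capitals.
Saa3 (chr7:46715760-46715783, minus strand): aagtgggaTTATGCAAgatcaaac
Cp (chr3:19957171-19957194, plus strand): agttactcTTTTGCAAcattaaat
Lcn2 (chr2:32387940-32387963, minus strand): ccttcctgTTGCTCAAccttgcac
S100a9 (chr3:90695942-90695965, minus strand): aggctgtcTTGCTTAAgatttggg
Slpi (chr2:164356733-164356756, minus strand): aatttgtaTTGAGCAAtaggttag
The sites start 99, 70, 216, 236 and 241 bases before the start of Saa3, Cp, Lcn2, S100a9 and Slpi, and those of Saa3, Cp and Slpi match on the opposite strand. Lcn2 and Slpi rose under both labels, and Saa3, Cp and S100a9 were among the genes whose change differed between labels, so both kinds held a site. Mt2 and Saa2 also held a site but were not among the genes that rose at 48 h under the wild-type label, and theirs are not shown. Cxcl1, Cxcl2, Il1rn, S100a8, Serpina3n and Mt1 had a window without such a match. Of these, Cxcl2 and Serpina3n rose at 48 h under the wild-type label. Cxcl1 (mean signal 3616 at 48 h and 481 at 0 h), Il1rn (699 and 135.5) and S100a8 (14405 and 3634) were also higher there. For each of them every 48 h array lay above every 0 h array, with 2 of the Il1rn 0 h arrays at the floor. Genes higher at 48 h were thus found with and without a site.

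Lists tied to Cebpa came next. Of 7 adipocyte and lipid genes 0 passed at 8, 16 or 48 h under either label in limma, with 2, 2 and 1 at an unadjusted p under 0.05 in mutant-labelled arrays and 0, 5 and 2 in wild-type-labelled arrays. Over all genes tested, 1.98%, 4.02% and 10.2% passed at these times under the mutant label and 0.185%, 6.41% and 15.4% under the wild-type label. With 7 genes, nothing is read from a count of 0. Of 9 myeloid genes 0 passed in mutant-labelled arrays at 48 h (1 at an unadjusted p under 0.05), while in wild-type-labelled arrays 2 rose and 1 fell: the lysozyme Lyz2 by 1.36 ± 0.27 (adjusted p = 0.00122), the myeloid factor Spi1 by 0.85 ± 0.21 (adjusted p = 0.00821), and the antimicrobial Camp with a decline of -1.85 ± 0.49 (adjusted p = 0.0124). Of all genes 10.2% passed under the mutant label and 15.4% under the wild-type label. For 0 of the 9 did the 48 h change differ between labels past the threshold in limma, with 3 at an unadjusted p under 0.05. Lyz2 was already higher in mutant-labelled arrays at 0 h, by 0.86 ± 0.27 (adjusted p = 0.0298). At 48 h its difference between labels did not pass (-0.24 ± 0.27, adjusted p = 0.603). Probes of Lyz2 may also read its close paralogue. The Camp call was lost without 0 h replicate 2 or 48 h replicate 1, or with only the 2 groups fitted, and that of Spi1 without 48 h replicate 1, which left 1 of the 3 calls.

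Of 14 glucocorticoid-responsive genes 1 fell at 8 h, 3 fell at 16 h, and 4 fell and 1 rose at 48 h in mutant-labelled arrays, where 1.98%, 4.02% and 10.2% of all genes passed. In wild-type-labelled arrays 0 passed at 8 h (3 at an unadjusted p under 0.05 in limma), 3 fell and 1 rose at 16 h, and 0 passed at 48 h (4 at an unadjusted p under 0.05), where 0.185%, 6.41% and 15.4% of all genes passed. In mutant-labelled arrays the 16 h count was 0 without 0 h replicate 1 or 2 or 16 h replicate 3 and 1 without 16 h replicate 2. The mutant-labelled 48 h count of 5 was 1 without 0 h replicate 2 and 3 without 0 h replicate 1 or 3. The wild-type-labelled 16 h count of 4 was 1 without 0 h replicate 1 or 3 or 16 h replicate 1, and 2 without 16 h replicate 2 or 3. Nr3c1, the glucocorticoid receptor, was too dim to be tested, at 257 ± 44.1 at 48 h and 252 ± 31.2 at 0 h in mutant-labelled arrays, and 239 ± 12.3 at 48 h and 261 ± 18.9 at 0 h in wild-type-labelled arrays (SD, n = 3 each). Dusp1, a phosphatase that ends MAP kinase signals, fell by 1.05 ± 0.16 (adjusted p = 0.00018) at 48 h in mutant-labelled arrays and by 0.59 ± 0.16 (adjusted p = 0.0286) at 16 h in wild-type-labelled arrays. Fkbp5, a co-chaperone of the glucocorticoid receptor, rose by 0.76 ± 0.21 (adjusted p = 0.0226) in mutant-labelled 48 h arrays and fell by 0.72 ± 0.21 (adjusted p = 0.0409) in wild-type-labelled 16 h arrays. The zinc finger factor Zbtb16 fell by 2.44 ± 0.49 (adjusted p = 0.00537) at 16 h in wild-type-labelled arrays. Errfi1, an inhibitor of EGF receptor signalling, fell by 1.06 ± 0.27 (adjusted p = 0.0379) at 8 h, and Rgs2, a regulator of G protein signalling, by 0.75 ± 0.18 (adjusted p = 0.0182) at 16 h in mutant-labelled arrays. The Errfi1 call at 8 h was lost without any of its 6 arrays. The Rgs2 call at 16 h was lost without 0 h replicate 1 or 2 or 16 h replicate 3, and that of Fkbp5 at 48 h without 0 h replicate 1 or 2 or 48 h replicate 3.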

How the data were processed

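Total RNA of microdissected olfactory epithelium was labelled with biotin and hybridised to Affymetrix arrays, per the labels. The deposited values were linear signal intensities from MAS5, per the submitters' processing notes, with no version named there. Trimming 2% from each end gave array means of 1500.7 to 1500.9, and no 2 arrays held identical values. Signals below 113.7, the 25th percentile, were set to that floor before log2. Testing required 3 or more arrays above the overall median of 572, which kept 6968 of 12422, standing for 5396 genes by their brightest probe set. Symbols came from the platform's probe table, with 0 updated through RefSeq GRCm38.p6.

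Group means were fitted in limma 3.58.1 (R 4.3.3) with moderated variances, two-sided, and Benjamini-Hochberg adjustment over the tested probe sets. Other steps used Python 3.11.15, numpy 2.4.6 and pandas 2.3.3. In simulated arrays with 200 changed probe sets, 85% of 2-fold and 99% of 4-fold changes were recovered for mutant at 48 h, 86% and 100% for wild type at 48 h, and 67% and 98% for their difference. The simulated noise was independent and normal, with the same spread in every group and no floor or deviating arrays. Recovery in the deposited arrays may therefore be lower. The members, gene lists and tests were chosen with earlier results of these data known. Named were the members, the partner genes past the threshold, Il6, Il1b, Stat3, Nr3c1, Omp and Msr1 where measured, up to 5 genes per other list with the largest change past the threshold at 8, 16 or 48 h, and the 3 genes most like each member. The number of arrays limits precision. Alternatives tried were a pseudocount of 16, quantile normalization, no filter, a variance trend, a replicate block, fits without the mutant-labelled 2 h arrays, fits restricted to the compared groups, and leaving out single arrays. Equal replicate numbers did not pair arrays: 135 same-number pairs correlated between -0.35 and 0.35 in their deviations from the group means.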

Additional observations from a re-analysis of the deposited data

Results flagged for a closer look

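Cebpb was noted because at 2, 16 and 48 h, but not at 8 h, every array of one label moved opposite to every array of the other. Its change from 0 h, mutant-labelled minus wild-type-labelled, was -1.0 on the log2 scale at 2 h, -0.95 at 16 h and -1.23 at 48 h. These 3 differences were not tested, since Cebpb was chosen for its pattern, and the first rests on the arrays with high Gapdh 3' minus 5' differences. At 0 h Cebpb already averaged 7433 in mutant-labelled and 4474 in wild-type-labelled arrays.

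For 12 listed genes the change at 48 h differed between labels in limma's test of that difference, each lower in mutant-labelled arrays. On the log2 scale the differences were -5.22 for Cxcl2, -4.43 for Saa3, -4.32 for Cxcl1, -3.63 for Orm1, -3.30 for Il1b, -2.99 for Ccl2, -2.41 for Il1rn, -2.28 for Il1r2, -2.17 for S100a8, -2.10 for S100a9, -1.71 for Cp and -1.48 for Socs3.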

How the results depend on the processing

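The differences of Cebpa, Cebpb and Cebpd moved by less than the spread between replicates under all 423 alternatives computed. With 3 arrays a group, leaving out 1 array cannot move a difference that far. Fits with a replicate block, without the mutant-labelled 2 h arrays or of only the compared groups leave these differences unchanged. Nothing is therefore read from those alternatives. Of the 39 differences, 20 moved by over 1.5 times or changed sign under at least 1 alternative, mostly with an array left out. Of the alternative counts of listed genes, 120 stayed within 1.5 times the reported count, 14 were higher and 26 lower. For these the cause was not tested, unless fewer arrays or genes were fitted. The count for mutant-labelled 2 h against 0 h was 8, and 0 with only the groups compared. For wild-type-labelled 2 h it was 1, and 2 with the pseudocount, quantile normalization, no mutant-labelled 2 h arrays, or only the groups compared. For wild-type-labelled 8 h it was 3, and 5 with quantile normalization, 0 with only the groups compared and 1 with no filter. For the difference of the 16 h changes it was 0, and 1 with the pseudocount, quantile normalization or a variance trend, 2 after dropping mutant-labelled 2 h, and 4 with only the groups compared. With each array left out in turn, the counts ran between 3 and 8, 4 and 7, 3 and 7, and 6 and 14 for mutant-labelled 2, 8, 16 and 48 h. They ran between 0 and 1, 0 and 8, and 6 and 13 for wild-type-labelled 2, 8 and 16 h, and between 0 and 1 for the difference at 16 h. With all arrays, 8 listed genes rose and 1 fell at mutant-labelled 8 h, and 5 rose and 4 fell at 16 h. At wild-type-labelled 16 h 8 rose and 6 fell. These counts lay above their ranges with an array left out. The lowest count of 6 at mutant-labelled 48 h came without 0 h replicate 2. For the difference of the 48 h changes the count was between 9 and 14.

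The replicate number did not pair the arrays, as 6 of 30 correlated best with their own number. With it as a block, the difference of the 16 h changes had 2 calls and that of the 48 h changes 11. For named genes 254 alternatives kept the call, 32 lost it and 0 reversed. Among the 10 genes most like each member, 1 for Cebpa, 7 for Cebpb and 8 for Cebpd were shared when mutant-labelled 2 h was added. Over the 27 single arrays 7, 7 and 6 were shared, and with Spearman correlation 2, 5 and 5. Signals near the floor limit Il6, Il1b, Cxcl2, Orm1 and Ccl2 in mutant-labelled arrays, and 3 arrays a group limit all.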
